A study of Mus musculus with 32 samples.

Results

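The 7 genes described here encode enzymes of the mevalonate pathway, from the condensation of acetyl-CoA to the synthesis of farnesyl diphosphate: Acat2, Hmgcs1, Mvk, Pmvk, Mvd, Idi1 and Fdps. They were chosen by symbol, and all 7 were found among the 55291 gene symbols of the count tables of every stage. The tables held RNA-seq counts from 32 whole-brain libraries of strain C57BL/6J mice, 4 libraries in each of 8 groups. Wild-type (WT, Dhcr7+/+) brains were compared with Dhcr7 knockout (KO, Dhcr7-/-) brains on the day of birth (postnatal day 0, PND0) and at 3 embryonic stages, E16.5, E14.5 and E12.5, named by the embryonic day. Dhcr7 encodes the reductase that turns 7-dehydrocholesterol into cholesterol, and its knockout is used to model Smith-Lemli-Opitz syndrome. Neither the sex nor the litter of a brain, nor how the Dhcr7 allele was made, is given in the labels.

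The mevalonate pathway makes isoprenoid units from acetyl-CoA. Acat2 joins acetyl-CoA molecules into acetoacetyl-CoA, Hmgcs1 adds a further acetyl group to give HMG-CoA, and mevalonate is made from HMG-CoA. Mvk and Pmvk phosphorylate mevalonate in turn, Mvd decarboxylates the product to isopentenyl diphosphate, Idi1 isomerises that to dimethylallyl diphosphate, and Fdps condenses these units to farnesyl diphosphate. Farnesyl diphosphate is the branch point between sterols and products such as dolichol, ubiquinone and the lipid anchors of prenylated proteins. The fetal brain makes most of its own cholesterol, and transcription of the pathway's genes is raised by the sterol-regulated factor SREBP-2 when sterols at the endoplasmic reticulum are low.

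The genes lie on 5 chromosomes (GRCm38, GENCODE M21 annotation), with Hmgcs1 and Idi1 on the same one and Pmvk and Fdps on the same one. Acat2 spans chr17:12942890-12960747 on the minus strand, Hmgcs1 chr13:119690379-119708260 on the plus strand, Mvk chr5:114444269-114460591 on the plus strand and Pmvk chr3:89454541-89469013 on the plus strand. Mvd spans chr8:122433601-122443422 on the minus strand, Idi1 chr13:8885501-8892451 on the plus strand and Fdps chr3:89093588-89101959 on the minus strand. Counts came from all annotated exons, 1713 nt of merged exon for Pmvk to 4594 nt for Hmgcs1. In the 250 bases before the RefSeq start (GRCm38.p6), the windows of Hmgcs1, Mvk, Mvd and Pmvk are shown because these members span the range of KO differences averaged over the stages, from 0.23 for Pmvk to 0.52 for Hmgcs1 and Mvd on the log2 scale. Letters are 5′ to 3′ on the strand of the gene, and capitals mark matches, on either strand, to TCACNCCAC (a form of the sterol regulatory element) or CCAAT (the CCAAT box, ATTGG on the other strand).
Hmgcs1 (chr13:119690101-119690350, plus strand): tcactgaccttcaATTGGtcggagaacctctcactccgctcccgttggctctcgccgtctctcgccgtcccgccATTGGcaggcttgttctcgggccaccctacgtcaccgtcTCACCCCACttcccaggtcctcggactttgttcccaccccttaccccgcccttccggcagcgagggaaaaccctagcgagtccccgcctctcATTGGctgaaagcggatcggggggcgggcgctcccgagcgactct
Mvk (chr5:114444019-114444268, plus strand): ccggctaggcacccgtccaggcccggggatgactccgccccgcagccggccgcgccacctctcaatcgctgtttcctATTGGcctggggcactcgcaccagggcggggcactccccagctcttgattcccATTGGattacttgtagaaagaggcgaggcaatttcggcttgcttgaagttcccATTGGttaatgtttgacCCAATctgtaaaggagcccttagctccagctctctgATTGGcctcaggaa
Mvd (chr8:122443423-122443672, minus strand): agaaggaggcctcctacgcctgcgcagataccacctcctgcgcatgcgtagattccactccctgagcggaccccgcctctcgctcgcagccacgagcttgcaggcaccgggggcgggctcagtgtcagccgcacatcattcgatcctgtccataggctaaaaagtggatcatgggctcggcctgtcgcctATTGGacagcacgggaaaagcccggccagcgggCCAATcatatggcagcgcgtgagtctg
Pmvk (chr3:89454291-89454540, plus strand): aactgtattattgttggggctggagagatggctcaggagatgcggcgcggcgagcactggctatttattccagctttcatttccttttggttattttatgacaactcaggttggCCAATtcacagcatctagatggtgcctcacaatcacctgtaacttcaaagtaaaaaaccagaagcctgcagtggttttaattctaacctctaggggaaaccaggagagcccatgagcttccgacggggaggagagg

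Of the 6 members with a window, Hmgcs1 alone held TCACNCCAC, which occurs in 1.05% of 32817 windows of this length. CCAAT matched 3 times in the Hmgcs1 window, 5 times in that of Mvk, 2 times each in those of Mvd and Idi1, 1 time in that of Pmvk and not in that of Acat2. Of all windows, 33.8% hold at least 1 CCAAT and 10.1% hold 2 or more. GGGCGG, the GC box, matched 2 times each for Hmgcs1 and Mvk, 1 time each for Mvd, Idi1 and Acat2 and not for Pmvk, and 32.7% of windows hold it. No match to a motif overlapped a match to another in these windows. The Mvk window overlaps that of Mmab, a gene of cobalamin metabolism transcribed the other way, at chr5:114444028-114444277. A second RefSeq start of Pmvk had no match to these motifs in its window. A match describes letters and shows no binding.

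Library totals ran from 13.87 to 28.32 M counts, and a ribosomal RNA gene took 0.191 to 5.64% of them, the most in E12.5 KO replicate 1. Member counts ran from 69 for Fdps to 18379 for Hmgcs1 per library. Levels are given as CPM (counts scaled to a common library size), with scaling by the trimmed mean of M values (TMM) over all 32 libraries. Dhcr7 was lower in every KO library than in every WT library of its stage, by log2 values of -1.64, -2.40, -1.88 and -2.63 from E12.5 to PND0. The biological coefficient of variation between libraries by stage was 19.9%, 6.25%, 9.99% and 16.6%. Neuron markers summed to 2259.4 to 5784.1 CPM. The summed levels of 9 of 11 cell type marker lists overlapped between KO and WT at every stage. At E14.5, 1 of 4 oligodendrocyte lineage markers passed, with sums of 60.6 to 69.4 CPM in WT and 57.0 to 60.6 CPM in KO. At E12.5 muscle and skin markers summed to 16.3 to 220 CPM in WT and 2.77 to 46.7 CPM in KO, against 0.63 to 1.47 CPM in E14.5 WT. Erythroid markers summed to 1449.4 to 7348.7 CPM in E12.5 WT. The part of these cells in the differences was not tested. Each stage was deposited as its own table, so stage and table cannot be told apart. In whole-brain RNA, fewer cells of a type and less RNA per cell cannot be told apart either. P-values set a difference against the spread between libraries within the groups fitted, estimated with information shared over genes.

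In WT brain the first enzymes of the pathway had the highest transcript levels per length. Hmgcs1 ranked highest at all 4 stages, followed by Acat2. Expressed as CPM per kb of merged exon, Hmgcs1 measured 75.8 ± 8.68, 87.8 ± 1.26, 92.6 ± 9.69 and 151 ± 32.9 (SD, n = 4) from E12.5 to PND0. Acat2 measured 68.8 ± 4.65, 55.6 ± 2.17, 71.0 ± 5.95 and 61.0 ± 9.43 CPM per kb, and its libraries overlapped those of Hmgcs1 at E12.5 only. Both stood apart from the other 5 members at every stage.

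Mvd, Pmvk and Mvk formed the middle of the order. Mvd measured 20.8 ± 1.81, 17.1 ± 0.944, 21.7 ± 2.31 and 25.0 ± 5.19 CPM per kb in WT in stage order (SD, n = 4). Pmvk measured 20.8 ± 2.23, 16.1 ± 1.55, 28.3 ± 1.62 and 19.1 ± 3.92 CPM per kb, and Mvk 16.9 ± 1.03, 14.0 ± 1.06, 15.5 ± 1.43 and 17.1 ± 2.13. Neighbours among these 3 overlapped at E12.5, E14.5 and PND0, whereas at E16.5 Pmvk, Mvd and Mvk were separate in that order. Idi1 followed with 11.2 ± 1.45, 11.6 ± 0.955, 8.86 ± 0.565 and 14.0 ± 3.62 CPM per kb and overlapped Mvk at PND0 only. Of the summed per-length level of the 7 transcripts, Hmgcs1 made up 35.1% ± 1.87, 43.1% ± 0.436, 38.6% ± 1.13 and 51.9% ± 2.50 by stage (SD, n = 4).

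**Figure D1:**
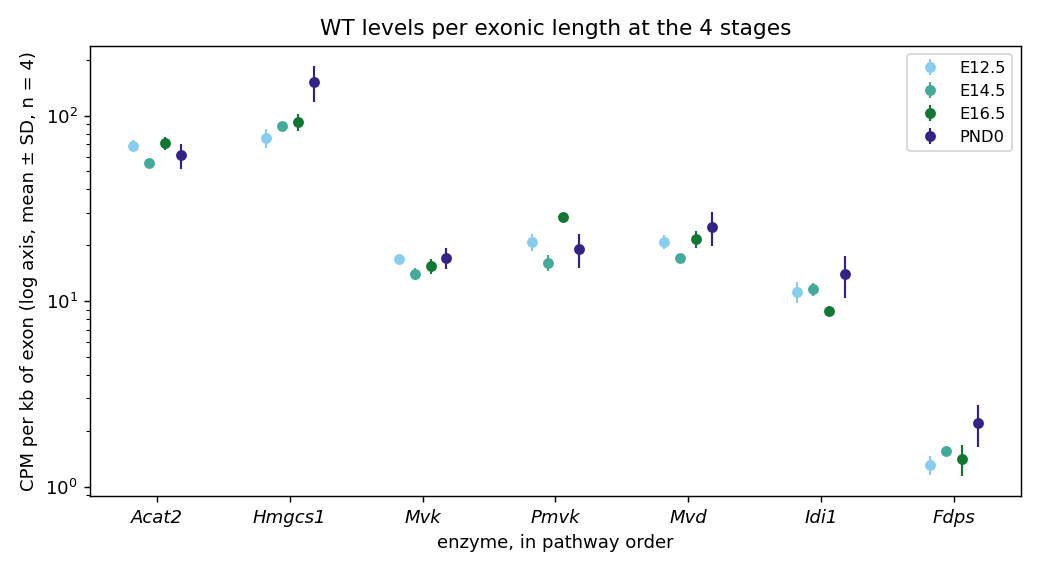
WT level of each enzyme transcript in CPM per kb of merged exon (log axis, mean ± SD, n = 4 libraries) at the 4 stages, with enzymes in pathway order. Hmgcs1 and Acat2 lie above the other 5 at every stage, and the counts assigned to Fdps alone, whose near copies are not included, give 1.32 to 2.20 CPM per kb.

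By the counts assigned to it alone, Fdps stood at 1.32 ± 0.154, 1.56 ± 0.0888, 1.41 ± 0.262 and 2.20 ± 0.553 CPM per kb in WT (SD, n = 4), and its value is uncertain. Its mRNA has 4 annotated processed pseudogenes, Gm3571, Gm5873, Gm7979 and Gm8163, aligned at 96.1 to 98.9% identity. Gm3571, the closest, matched over 1062 nt. These copies took 37.1 to 73.5% of the summed counts of Fdps and copies in a library. Another annotated gene on the same strand, Gm43738, overlaps 26.7% of the exonic length of Fdps, 4208 nt, by which its level was divided. Against the 1382 nt mRNA of Fdps, Gm43738 was identical over 929 nt. It was not among the copies added, since this was 35.3% of its own transcript, so the sums do not include its reads. How reads that match more than 1 gene were counted is not given in the sources used here, so neither the Fdps level nor its rank can be taken as that of the mRNA. For Acat2 the near copy Acat3 took 0.376 to 1.22% of the sum, and for Idi1 the pseudogenes Gm13502 and Gm35570 took 0.480 to 1.61%. Antisense Gm48342 overlaps 12.1% of the exons of Hmgcs1, and Gm48574 on the opposite strand overlaps 9.22% of those of Idi1. The strand setting of the counting is not given, so reads of these partners cannot be told apart.

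**Figure D2:**
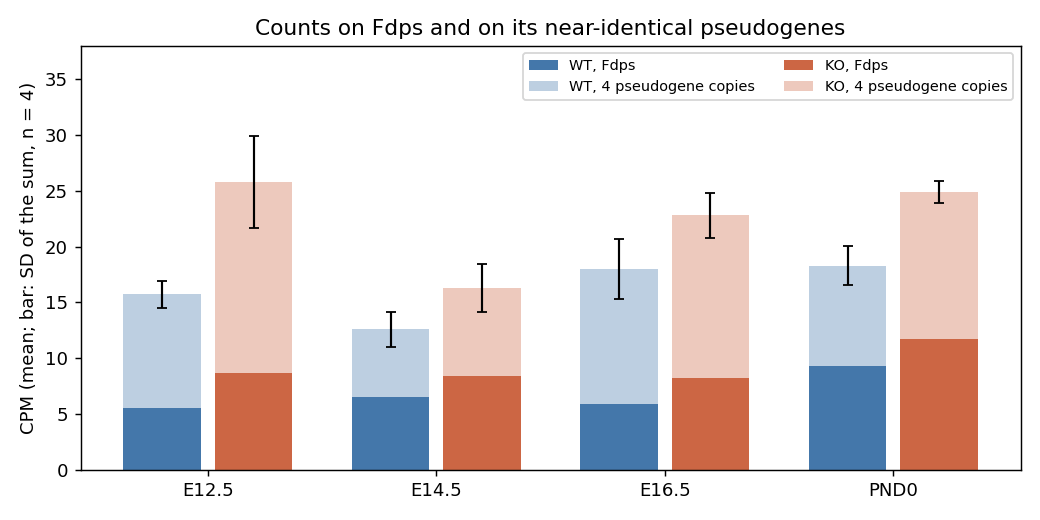
CPM on Fdps (dark) and on its 4 near-identical pseudogenes (light) in WT and KO at each stage, stacked means of 4 libraries with the SD of the sum as the bar. The copies held more of the sum than Fdps itself at E12.5 and E16.5 in both genotypes, and the sum was 15.7 CPM in WT and 25.8 CPM in KO at E12.5.

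Over development the members did not move as a block in WT. From E12.5 to E14.5, 5 of 7 passed the threshold of an adjusted p under 0.05 (edgeR, Benjamini-Hochberg over all genes tested), against 57.8% of all genes tested. Acat2 (log2 fold change -0.32, SE 0.0559, adjusted p 0.000762), Mvk (-0.28, SE 0.0727, 0.00718), Pmvk (-0.39, SE 0.0925, 0.00457) and Mvd (-0.30, SE 0.0751, 0.00601) fell, whereas Hmgcs1 rose by 0.20 (SE 0.0717, adjusted p 0.0385). The Hmgcs1 call was lost without E12.5 WT replicate 2 (adjusted p 0.0773) and without any E14.5 WT library (0.0653 to 0.0774). Idi1 differed by 0.03 (SE 0.0959, adjusted p 0.797). When each library's trend with transcript length was removed, the steps of Hmgcs1, Pmvk and Mvd were smaller, at 0.13, -0.22 and -0.16, and their calls were lost (adjusted p 0.196, 0.0537 and 0.0910).

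From E14.5 to E16.5, 4 of 7 members passed, against 57.5% of all genes tested. Pmvk had the largest step of the 7, from WT libraries at 27.6, 24.2, 30.7 and 27.6 CPM to libraries at 51.3, 50.5, 46.4 and 45.9 CPM (log2 fold change 0.83, SE 0.0772, adjusted p 2.1e-07). Every E16.5 library was above every E14.5 library. Acat2 rose by 0.36 (SE 0.0583, adjusted p 6.84e-05) and Mvd by 0.35 (SE 0.0794, 0.00131), while Idi1 fell by 0.38 (SE 0.0753, 0.00041). From E16.5 to PND0, 5 of 7 passed, against 53.2% of all genes tested. Pmvk fell again, by 0.63 on the log2 scale (SE 0.12, adjusted p 0.000491), to 27.1, 42.3, 32 and 29.2 CPM, all below the E16.5 libraries.

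Hmgcs1 rose at birth, from E16.5 libraries at 457, 470.1, 388 and 387 CPM to PND0 libraries at 766, 723, 813 and 474 CPM (log2 fold change 0.65, SE 0.146, adjusted p 0.00293). The groups did not overlap, although PND0 replicate 4 lay close to the E16.5 range. Idi1 rose by 0.60 (SE 0.163, adjusted p 0.00847) with overlapping groups, since PND0 replicate 4 was at 31.1 CPM and the other 3 at 49.7 to 59.8 CPM. Acat2 fell by 0.28 (SE 0.102, adjusted p 0.0339), a call lost without E16.5 WT replicate 1 or 2 or PND0 WT replicate 2 or 4 (-0.29 to -0.18, adjusted p 0.0636 to 0.103). Mvk and Mvd differed by 0.08 and 0.14 (adjusted p 0.543 and 0.407), and Mvd passed without PND0 WT replicate 4 (0.27, adjusted p 0.0455). With the length trend removed the Acat2 call was lost (0.0864) and Mvd passed (0.35, adjusted p 0.0403).

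The WT course of Fdps depended on its copies. Fdps alone differed by 0.22 (SE 0.124, adjusted p 0.148) from E12.5 to E14.5, by -0.14 (SE 0.147, 0.436) from E14.5 to E16.5 and rose by 0.59 (SE 0.206, 0.0266) to PND0. With the 4 pseudogenes added, the same steps were -0.34 (SE 0.108, adjusted p 0.0211), 0.53 (SE 0.118, 0.00123) and -0.04 (SE 0.126, 0.824), so that every step turned in sign. The rise of Fdps alone to PND0 was also lost without E16.5 WT replicate 3 or 4, without PND0 WT replicate 1, 3 or 4 (adjusted p 0.0535 to 0.0895) and with the length trend removed (0.0617). No direction over the WT stages is therefore given for Fdps.

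In KO brain all 7 enzymes had a higher mean transcript level than in WT at all 4 stages, 28 of 28 differences, and 7 of these 28 passed the threshold. None of the 7 passed at E12.5, where 0.0059% of all tested genes passed as higher. Acat2, Hmgcs1, Mvd and Idi1, 4 of 7, passed at E14.5, beside 0.219% of all tested genes. Mvd alone, 1 of 7, passed at E16.5 (0.0289% of all), and Acat2 and Mvd, 2 of 7, passed at PND0 (0.402% of all). For KO against WT, rose and fell are used below only of differences that passed. The median log2 fold change of the 7 was 0.53, 0.33, 0.32 and 0.41 in stage order, beside medians over all tested genes of 0.003, 0.002, 0.000 and -0.001. Of all tested genes, 49.9 to 50.7% had a positive difference. KO libraries all lay above WT libraries for 19 of the 28, by stage for 5, 4, 5 and 5 of the 7, beside 1.71, 2.18, 2.87 and 5.43% of all tested genes. Averaged over the stages in a fit of all 32 libraries, 6 of 7 passed as higher, against 0.399% of all tested genes, and Pmvk did not pass.

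**Figure D3:**
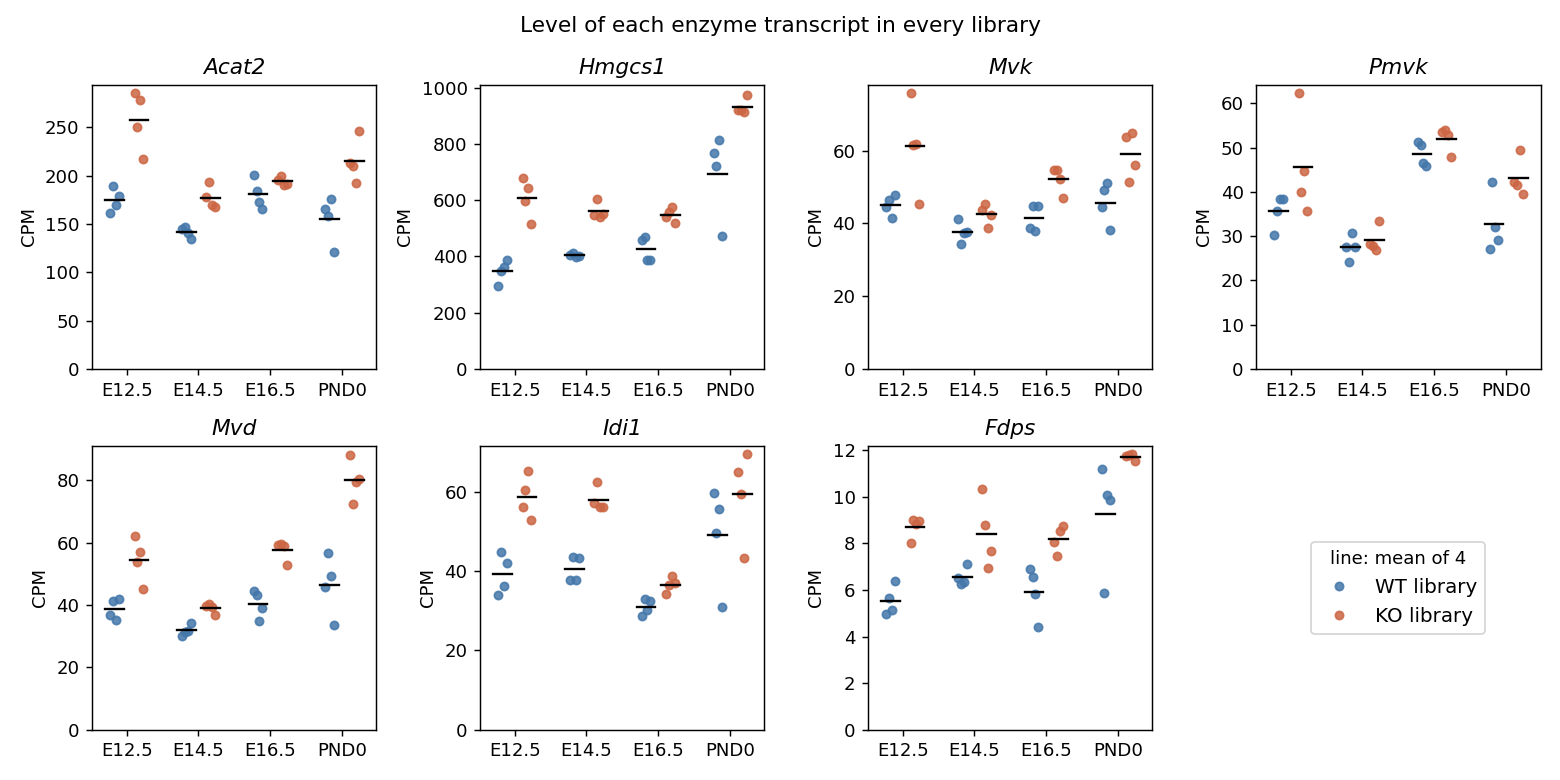
CPM of each enzyme transcript in every library (points; WT blue, KO orange; lines are means of 4) at the 4 stages, with a separate linear axis from 0 for each gene. Hmgcs1 KO libraries lie above all WT libraries of their stage throughout, whereas for Pmvk the groups overlap at every stage.

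Acat2, at the entry to the pathway, was higher in KO at E12.5, E14.5 and PND0 with no overlap between groups, and at E16.5 the groups overlapped. At E12.5 the WT libraries measured 162, 189, 169 and 179 CPM and the KO libraries 286, 250.4, 278 and 217 CPM (log2 fold change 0.53, SE 0.101, adjusted p 0.589). At E14.5 they measured 144.6, 147, 141 and 134 CPM in WT and 178, 193, 170.1 and 167 CPM in KO (0.33, SE 0.0402, adjusted p 9.57e-07). The lowest KO library thus exceeded the highest WT library at both stages, yet the larger difference at E12.5 did not pass. At E16.5 WT libraries ran from 165.3 to 200.3 CPM and KO libraries from 191 to 199.9 CPM (0.10, SE 0.0602, adjusted p 0.546). At PND0 the WT libraries were at 165.1, 159, 176 and 121 CPM and the KO libraries at 213, 209.9, 192 and 246 CPM (0.48, SE 0.106, adjusted p 0.040). That call held in 1 of 8 fits that left out a library, the fit without KO replicate 3. The other 7 gave an adjusted p of 0.0538 (without WT replicate 4) to 0.0960 (without KO replicate 1).

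Hmgcs1, which commits acetyl units to HMG-CoA, was the member with the largest difference at E12.5 and, with Idi1, the most raised at E14.5. Its E12.5 libraries measured 294, 349, 362 and 388 CPM in WT and 679, 597, 643 and 515 CPM in KO, a log2 fold change of 0.78 (SE 0.114, 1.72-fold, adjusted p 0.264). At E14.5 WT libraries lay within 399 to 411 CPM, and KO libraries at 548, 602, 538 and 551 CPM (0.48, SE 0.0318, adjusted p 2.72e-14). The WT spread at E14.5 was the narrowest of the 4 stages, with an SD of 5.78 CPM. The E16.5 libraries were at 457, 470.1, 388 and 387 CPM in WT and 541, 556, 577 and 519.9 CPM in KO (0.36, SE 0.0733, adjusted p 0.164). Without WT replicate 2 this difference passed (0.42, adjusted p 0.045). At PND0 they were 766, 723, 813 and 474 CPM in WT and 919, 920.1, 912 and 975 CPM in KO (0.43, SE 0.132, adjusted p 0.120). Every KO library lay above every WT library of its stage at all 4 stages, as was found for Mvd and for no other member.

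Mvk and Pmvk, the kinases that phosphorylate mevalonate in turn, passed at no stage. Mvk was higher in KO by 0.41 (SE 0.138, adjusted p 0.875), 0.19 (SE 0.0612, 0.264), 0.32 (SE 0.0768, 0.240) and 0.37 (SE 0.109, 0.0923) on the log2 scale in stage order. Its E12.5 KO libraries spread from 45.4 CPM in replicate 4 to 76.0 CPM in replicate 1, with WT at 41.5 to 47.9 CPM, so the groups overlapped. They also overlapped at E14.5, with 34.2 to 41.1 CPM in WT and 38.8 to 45.2 CPM in KO. At E16.5 the WT libraries measured 38.7, 44.9, 37.9 and 44.8 CPM and the KO libraries 54.6, 54.8, 52.2 and 47.1 CPM, and at PND0 they measured 44.5, 49.1, 51.0 and 38.2 CPM and 63.7, 51.4, 64.9 and 56.0 CPM. At these later stages no library of a group lay within the other's range.

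Pmvk had the smallest differences of the 7 at every stage but PND0, at 0.33 (SE 0.162, adjusted p 0.875), 0.08 (SE 0.0747, 0.823), 0.09 (SE 0.064, 0.601) and 0.41 (SE 0.132, 0.119). The 95% interval of its E14.5 difference ran from -0.06 to 0.23, and that of its E16.5 difference from -0.03 to 0.22. KO and WT libraries overlapped throughout. At E12.5 the KO libraries were at 62.3, 40.0, 44.7 and 35.8 CPM, with replicate 1 far above the rest, and the WT libraries at 30.3 to 38.5 CPM. Without that KO library the E12.5 difference was 0.14. At PND0 WT replicate 2, at 42.3 CPM, was within the KO range of 39.4 to 49.5 CPM, while the other WT libraries were at 27.1, 32 and 29.2 CPM. Without that WT library the PND0 difference was 0.54 and passed (adjusted p 0.043).

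Mvd, which makes isopentenyl diphosphate, passed as higher in KO at E14.5, E16.5 and PND0, the most stages of any member. At E12.5 the WT libraries measured 36.8, 41.2, 35.1 and 42.0 CPM and the KO libraries 62.0, 54.0, 56.9 and 45.0 CPM, without overlap (0.46, SE 0.111, adjusted p 0.875). At E14.5 they measured 30.2, 31.3, 31.6 and 34.3 CPM in WT and 39.6, 40.3, 39.4 and 36.8 CPM in KO (0.30, SE 0.0608, adjusted p 0.00629). Leaving out E14.5 WT replicate 1 gave 0.27 and an adjusted p of 0.0541. At E16.5 the WT libraries were at 44.3, 43.3, 34.98 and 39.0 CPM and the KO libraries at 59.3, 59.5, 58.9 and 52.7 CPM (0.51, SE 0.0784, adjusted p 0.034). This call was lost without WT replicate 3 or 4 or without KO replicate 1, 2 or 3 (0.44 to 0.50, adjusted p 0.0899 to 0.227). It was also lost with a covariate from sex-linked genes (0.48, adjusted p 0.118) and in a fit of all 32 libraries (0.51, adjusted p 0.187). At PND0 WT measured 45.8, 56.7, 49.4 and 33.6 CPM and KO 88.2, 72.5, 79.6 and 80.4 CPM (0.79, SE 0.128, 1.73-fold, adjusted p 0.0111), and without KO replicate 1 the difference was 0.75 (adjusted p 0.0507). In every stage the groups were separate, including E12.5, where it did not pass.

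Idi1, the isomerase, rose in KO at E14.5, where its difference was the largest of the 7. Its libraries measured 37.8, 43.6, 37.7 and 43.4 CPM in WT and 57.2, 62.6, 56.1 and 56.1 CPM in KO (0.52, SE 0.0564, adjusted p 3.73e-08). At E12.5 the WT libraries were at 33.9, 44.9, 36.1 and 42.1 CPM and the KO libraries at 56.3, 60.5, 65.4 and 52.9 CPM (0.56, SE 0.111, adjusted p 0.717). Groups were separate at both stages and also at E16.5, with 28.7 to 32.9 CPM in WT and 34.3 to 38.8 CPM in KO (0.23, SE 0.0712, adjusted p 0.299). At PND0 they overlapped, since KO replicate 3 was at 43.4 CPM and WT replicate 1 at 59.8 CPM (0.28, SE 0.199, adjusted p 0.509). This difference was 0.12 without WT replicate 4 and 0.40 without KO replicate 3.

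Fdps, the last enzyme, had low counts and passed at no stage. Its log2 fold changes were 0.63 (SE 0.134, adjusted p 0.875), 0.37 (SE 0.128, 0.312), 0.46 (SE 0.144, 0.302) and 0.34 (SE 0.186, 0.358). Without WT replicate 2 the PND0 difference was 0.17. At E12.5 the WT libraries measured 4.96, 5.65, 5.14 and 6.40 CPM and the KO libraries 8.03, 9.02, 8.85 and 8.95 CPM. Groups were separate at E12.5, E16.5 and PND0, and at E14.5 KO replicate 3, at 6.93 CPM, lay below WT replicate 4, at 7.10 CPM. With the 4 pseudogenes added, the differences were 0.69, 0.38, 0.33 and 0.45 (adjusted p 0.550, 0.0793, 0.308 and 0.0663), positive as before. The sum was 15.7 ± 1.24 CPM in WT, against 25.8 ± 4.11 CPM in KO, at E12.5, and 18.3 ± 1.74 and 24.9 ± 1.02 CPM at PND0 (SD, n = 4).

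**Figure D4:**
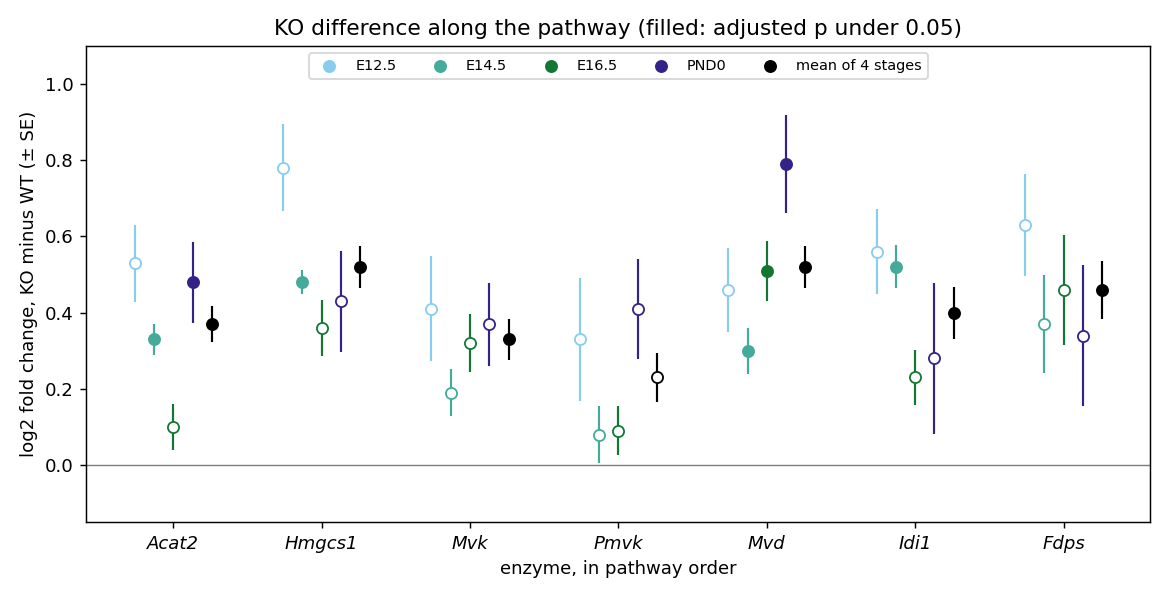
Log2 fold change, KO minus WT, of each enzyme at the 4 stages and averaged over them (black), in pathway order, with the SE as the bar and filled points for an adjusted p under 0.05. All points lie above 0, from 0.08 for Pmvk at E14.5 to 0.79 for Mvd at PND0.

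At E12.5, 6 of the 7 had an unadjusted p under 0.05, and so did 796 of 16948 genes. DESeq2 called 3 members at E12.5, namely Acat2, Hmgcs1 and Idi1 (adjusted p 0.00719, 2.02e-06 and 0.0217). When all 32 libraries shared 1 estimate of the spread, Acat2, Hmgcs1 and Mvd passed at E12.5 (0.00195, 0.000134 and 0.0378), while none of the 4 called at E14.5 passed (0.401 to 1.0). The stages at which members passed thus differed between these fits, which also differed in the genes tested. The log2 fold changes in the fit of all 32 libraries, 0.56, 0.80 and 0.49 for these 3 at E12.5, were close to those given.

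At E16.5 and PND0 some other fits called more members and some called fewer. DESeq2 called Hmgcs1, Mvk and Mvd at E16.5, with adjusted p 0.000919 for Hmgcs1 and 0.0264 for Mvk. Without the filter on low counts the same 3 passed there (7.61e-05 for Hmgcs1 and 0.0050 for Mvk). In the fit of all 32 libraries no member passed at E16.5, with Mvd at 0.51 (adjusted p 0.187). With the covariate from sex-linked genes none passed there either. At PND0, DESeq2 and the fit of all 32 libraries both added Hmgcs1 (0.0216 and 0.0196) and Mvk (0.0350 and 0.0390), and the fit without the filter added Hmgcs1, Mvk and Pmvk (2.17e-05, 0.0150 and 0.0207). With the length trend removed the PND0 call of Acat2 was lost (0.45, adjusted p 0.0877). It was also lost with replicate number as a block (0.48, adjusted p 0.0649). Across tested genes the KO difference at PND0 had a Spearman correlation of -0.29 with exonic length (17107 genes from the same libraries), and the median exonic length was 4070 nt.

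At PND0 the summed level of the choroid plexus markers did not overlap between genotypes, although none of the 4 passed the threshold. These markers (Ttr, Clic6, Folr1 and Kcne2) summed to 297 to 601 CPM in WT and 602 to 960.0 CPM in KO. The liver list, which shares Ttr, summed to 283 to 572 CPM in WT and 573 to 919 CPM in KO, and its 3 other markers, Alb, Afp and Apoa1, were under 1 CPM in both groups, so that sum is almost all Ttr. The part of these cells in the PND0 differences of Acat2 and Mvd was not tested. At E12.5, E14.5 and E16.5 both lists overlapped between genotypes. At these stages Mvd KO libraries were above all WT libraries, whereas Acat2 was separate at E12.5 and E14.5 and overlapped at E16.5. The embryonic stages do not test the part of such cells at PND0.

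Averaged over the 4 stages, the KO difference was 0.37 for Acat2 (SE 0.0464, 1.29-fold, adjusted p 7.17e-06), 0.52 for Hmgcs1 (SE 0.0549, 1.43-fold, 2.33e-07) and 0.33 for Mvk (SE 0.0546, 1.26-fold, 0.000788). It was 0.52 for Mvd (SE 0.0544, 1.44-fold, 1.73e-07), 0.40 for Idi1 (SE 0.0679, 1.32-fold, 0.000963) and 0.46 for Fdps (SE 0.0763, 1.37-fold, 0.000866). These 6 rose, and each passed in all 32 fits that left out a library. Fdps with its copies added gave 0.47 (adjusted p 6.8e-06). On their own, the pseudogenes Gm3571 and Gm5873 gave 0.48 (SE 0.101, adjusted p 0.0129) and 0.49 (SE 0.153, 0.144). The sum is thus no separate check of the Fdps mRNA. Pmvk differed by 0.23 (SE 0.0645, 1.18-fold, adjusted p 0.0984). It passed with DESeq2 (0.24, adjusted p 0.0324), without E12.5 KO replicate 4 (0.26, 0.0365) and without PND0 WT replicate 2 (0.27, 0.0195).

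Whether the KO difference changed with stage was tested in the same fit of 32 libraries. None of the 7 passed (edgeR, adjusted p 0.243 to 0.774), and 5 of 19541 genes did (0.0256%), Dhcr7 among them. Unadjusted p-values under 0.05 were found for Acat2 (0.00872), Hmgcs1 (0.0363) and Mvd (0.0246). DESeq2 called none of the 7 either. The smaller differences of Acat2 and Pmvk at E16.5, at 0.10 and 0.09, are thus not shown to differ from those at other stages. The 95% intervals of these E16.5 differences, -0.02 to 0.22 for Acat2 and -0.03 to 0.22 for Pmvk, leave the sign undetermined.

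The share of each transcript in the summed per-length level of the 7 was compared by value only. The mean Hmgcs1 share was higher in KO than the WT shares given above at the 3 embryonic stages, at 40.0% ± 0.522, 46.2% ± 0.439 and 41.3% ± 0.808 (SD, n = 4). In newborns it was 51.0% ± 0.937, against 51.9% ± 2.50. The Acat2 share was 31.9% ± 1.33 in WT and 30.6% ± 0.601 in KO at E12.5 and 29.7% ± 1.17 and 26.4% ± 0.853 at E16.5. At E14.5 it was 27.3% ± 0.914 in WT and 26.4% ± 0.668 in KO, and at PND0 21.2% ± 0.933 and 21.2% ± 1.44. The Mvd share was lower in KO at E12.5, at 9.68% ± 0.614 in WT and 8.84% ± 0.109 in KO. At E14.5 it was 8.4% ± 0.507 in WT and 7.96% ± 0.351 in KO. At E16.5 the Mvd share was 9.06% ± 0.415 in WT and 10.7% ± 0.299 in KO. At PND0 it was 8.63% ± 0.871 in WT and 10.9% ± 0.779 in KO. Idi1 moved from the sixth to the fifth place in KO at E14.5, where its libraries overlapped those of Pmvk above it and Mvk below it. In KO as in WT, Hmgcs1 ranked highest at every stage.

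Members also varied together between libraries of a group. As deviations from the group mean over the 32 libraries, log2 CPM of Acat2 and Hmgcs1 had a Pearson r of 0.855, Hmgcs1 and Mvd 0.770, Acat2 and Idi1 0.724 and Mvk and Mvd 0.725. Pmvk went with Mvk (0.626) more than with Acat2 (0.272) or Idi1 (-0.0965). Fdps went with none of the other 6, at -0.326 to 0.146. These values describe libraries that share depth and RNA quality between genes. Against the mean of the other 6, r was 0.898 for Hmgcs1, 0.813 for Acat2, 0.804 for Mvd, 0.623 for Mvk, 0.538 for Idi1, 0.334 for Pmvk and -0.051 for Fdps. Low libraries showed this in WT at PND0, where replicate 4 was lowest for Acat2 (121 CPM), Hmgcs1 (474 CPM), Mvk (38.2 CPM), Mvd (33.6 CPM) and Idi1 (31.1 CPM), but not for Pmvk or Fdps.

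Among 16066 genes averaging 1 CPM or more, those whose deviations from the stage mean over the 32 libraries were most like the mean profile of the 7 were Sqle (r = 0.964), Nsdhl (0.949), Aacs (0.944), Fdft1 (0.937), Cyp51 (0.934) and Msmo1 (0.918). All but Aacs encode enzymes between farnesyl diphosphate and cholesterol. Aacs makes acetoacetyl-CoA from acetoacetate. It differed by 0.57, 0.32, 0.37 and 0.50 between KO and WT in stage order. Within stages the profile holds the genotype difference as well as the spread between libraries. As Aacs was picked by likeness to that profile in the same libraries, its higher KO level follows largely from the choice. It is therefore no separate result, and no test is given for it. Over the 16 WT libraries alone, the course of Hmgcs1 was most like those of Zdhhc2 (0.962), Rab1a (0.962) and Vti1a (0.956). The counts assigned to Fdps alone were most like Pomk (0.910), Gm44950 (0.859) and Xylt1 (0.859). As the WT steps of Fdps turned in sign with its copies added, these matches cannot be taken as those of its mRNA.

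Of the 11 enzymes that follow on the way to cholesterol, without Dhcr7, 0, 9, 2 and 2 passed as higher in stage order. The shares of all tested genes that passed as higher were 0.0059, 0.219, 0.0289 and 0.402%. Averaged over the stages 10 of the 11 passed as higher, beside 0.399% of all tested genes, and none of the 11 passed as lower. Their median log2 fold changes were 0.48, 0.35, 0.25 and 0.33, beside 0.53, 0.33, 0.32 and 0.41 for the mevalonate enzymes. Sqle, the squalene epoxidase, rose at E14.5 (0.34, SE 0.0364, adjusted p 1.49e-08) and E16.5 (0.34, SE 0.0522, 0.034). Nsdhl, of the removal of the sterol methyl groups, rose at E14.5 (0.38, SE 0.057, 3.84e-05) and PND0 (0.57, SE 0.121, 0.0327). Both lists share the same control libraries, so these medians are set side by side only.

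None of the 11 enzymes that use farnesyl or isopentenyl diphosphate for products other than sterols passed at any stage or on average. Their medians were 0.02, 0.00, -0.08 and -0.00. Ggps1, the geranylgeranyl diphosphate synthase, had the smallest p of the list at E14.5, with a difference of 0.11 (SE 0.0492, adjusted p 0.552). None of the 3 genes of cytosolic acetyl-CoA supply passed. Few of all tested genes passed either, by the shares given above, so the lack of calls sets neither list apart. Acly, the citrate lyase that feeds acetyl-CoA to the pathway, differed by 0.10 at E14.5 (SE 0.0291, adjusted p 0.155) and by 0.17 on average (SE 0.0433, 0.0658).

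Of 9 genes of sterol sensing and SREBP control, 3 rose and 1 fell at E14.5, 1 rose at E16.5, and 1 rose and 1 fell at PND0. Averaged over the stages, 4 rose and 1 fell. Of all tested genes, 0.219, 0.0289 and 0.402% rose at these stages and 0.399% on average. Insig1, a sterol-dependent retention protein for SREBP that is also an SREBP target, rose at E14.5 (0.42, SE 0.042, adjusted p 2.68e-09) and PND0 (0.61, SE 0.112, 0.0201). Srebf1, whose product acts mostly on fatty acid genes, fell by 0.56 at E14.5 (SE 0.0479, 5.94e-11) and by 0.43 at PND0 (SE 0.0905, 0.0292), opposite to the mevalonate enzymes.

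Among relatives of the members with other roles, Acat1 and Acat3 did not pass at any stage or on average. Acat1, the mitochondrial thiolase, averaged -0.04 (SE 0.0367, adjusted p 0.712), against 0.37 for Acat2. Acat3, the near copy of Acat2, averaged 0.09 (SE 0.155, adjusted p 0.876). Idi2 was too low to be tested. Mmab, which shares the region before its start with Mvk, averaged 0.14 (SE 0.0517, adjusted p 0.239), against 0.33 for Mvk. The differences between these relatives and the members were not tested.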

How the data were processed

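Messenger RNA of 32 whole-brain libraries was enriched by poly(A) and sequenced as paired reads, per the labels' protocols. The authors deposited 1 table per stage of raw, whole-number counts per gene symbol, not normalized. HISAT2, SAMtools, featureCounts, DESeq2 and the build mm10 are named in the submitters' processing notes, and the strand setting and the handling of reads that match several genes are not given in the sources used here. Totals ran from 13.87 to 28.32 M counts per library, so the lowest member counts, 69 for Fdps, limit the precision most.

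Counts were fitted with edgeR 4.0.16 in R 4.3.3: the F test of a quasi-likelihood fit (robust) after TMM scaling, with genes kept by filterByExpr at a minimum count of 10 and a minimum total of 15, and Benjamini-Hochberg adjustment over all genes tested and a threshold of 0.05. Each genotype comparison used the 8 libraries of its stage, and each WT step the WT libraries of both stages. All 32 libraries, fitted together with a mean per group, gave the KO effect averaged over 4 stages and its change with stage. SE is the size of a log2 fold change divided by the square root of F. The 95% intervals reach 1.96 SE to either side, a normal quantile, so with 4 libraries per group they are narrower than the F test implies. Displayed CPM used TMM over the 32 libraries, and log2 CPM a prior count of 2. Lengths are merged exons of GENCODE M21. Near copies were genes whose transcript aligned to a member's mRNA at 95% identity or more over at least 300 nt and at least 50% of the copy. All 7 members were named, other genes by lists: members past the threshold at 2 or more stages in the same direction, otherwise the smallest p at E14.5, all of the relatives, and the 6 genes most like the 7. Members and lists were chosen with earlier results of these data known. Some genes that these rules name, and another enzyme of the pathway, are not reported here. Alternatives were RLE factors, no filter, DESeq2 1.42.0, each library left out, a replicate block, length offsets (spline with 5 degrees of freedom), a sex-gene covariate and a fit of all 32 libraries. The scripts were tested on simulated data.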

Additional observations from a re-analysis of the deposited data

Results flagged for a closer look

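Among 56 sets of 4 libraries (7 genes in 8 groups), 3 held a library far from the others by Dixon's test. Chance sets apart a library in about 1 in 20 such groups. The highest Hmgcs1 library of PND0 KO, replicate 4, was at 975 CPM, with the other 3 at 912 to 920.1 CPM. In E16.5 KO, replicate 4 was lowest for Pmvk, at 47.8 CPM against 53.0 to 53.9 CPM, and for Mvd, at 52.7 CPM against 58.9 to 59.5 CPM. Without this library the E16.5 difference of Mvd kept its call, and that of Pmvk did not pass. E16.5 KO replicate 4 was also the lowest of its group for Hmgcs1 (519.9 CPM) and Mvk (47.1 CPM).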

How the results depend on the processing

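Of 1328 values of single members under the alternatives, 1256 kept their side of the threshold and, where they have one, their direction. A call was lost in 43 and gained in 24, and 5 turned in sign. The 1256 include all values of the change with stage, 224 of them with a library left out. Those have no direction and could not turn in sign. With the near copies summed, an alternative chosen after seeing the data, Fdps turned to -0.34, 0.53 and -0.04 in the 3 WT steps, and the added reads are those of its pseudogenes. The WT step of Idi1 from E12.5 to E14.5 was -0.02 without E12.5 WT replicate 1 and -0.00 without E12.5 WT replicate 3, and ran to 0.10 over the libraries left out.

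The number of the 7 members called at E12.5 was 3 with DESeq2 and 3 in the fit of all 32 libraries, against 0. At E14.5 it was 0 with all 32 libraries, against 4. At E16.5 it was 3 without the filter, 3 with DESeq2, 0 with the sex-gene covariate and 0 with all 32 libraries, against 1. At PND0 it was 5 without the filter, 4 with DESeq2, 1 with length offsets and 4 with all 32 libraries, against 2. For the WT step from E12.5 to E14.5 it was 2 with length offsets, against 5. Leaving out a library gave 0 in each E12.5 fit, 3 to 4 (E14.5), 0 to 2 (E16.5) and 0 to 2 (PND0) for genotype, 4 to 5, 4 and 4 for the WT steps, 6 to 7 for the average and 0 for the change with stage. The cause was not tested.

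Counts of all genes called moved as well: E12.5 had 3, against 23 with DESeq2 and 52 with all 32 libraries. E14.5 had 94, against 146 without the filter and 4 with all 32 libraries. E16.5 had 8, against 233 without the filter and 150 with DESeq2. PND0 moved from 250 to 1091 (no filter), 904 (DESeq2), 72 (length offsets) and 1205 (all 32 libraries). On average over the stages they moved from 109 to 72 without the filter and 342 with DESeq2, and for the change with stage from 5 to 11, 346 and, with the replicate block, 0.

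Same-numbered KO and WT libraries correlated at -0.285 to 0.292 in their deviations from the group means. The KO library most like a WT library had its number for E12.5 replicates 1 and 3 (0.279 and 0.292). This was also so for E14.5 replicate 4 (0.102) and PND0 replicate 3 (0.119), and for no other replicate. As litter is not given, these values cannot tell whether replicate numbers pair the libraries. With the replicate block, 1 member was called at PND0, against 2, since Acat2 had an adjusted p of 0.0649, and the WT step of Hmgcs1 from E12.5 to E14.5 had 0.055. The block changed no other member's call. Counts of Fdps, 69 to 235 per library, limit its precision.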
